A study of Mus musculus with 10 samples.

Results

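OSCARlow EF1ahigh cells were compared with OSCARmed EF1ahigh cells, which are the 2 gates of the mouse small-intestinal crypt that share a high EF1a signal and differ in the OSCAR ratio. Members were chosen by sample title, as the 2 libraries labelled P3 (OSCARlow EF1ahigh) and the 2 labelled P5 (OSCARmed EF1ahigh), 4 of the 10 libraries in the series. OSCAR is a fluorescent reporter of 2 linked proteins, a Venus variant that loses its fluorescence when CDK9 phosphorylates it, and mCherry. EF1a high or low refers to the overall level of both proteins, which the EF1a promoter drives together. A low ratio of Venus to mCherry therefore marks high CDK9 activity, and the comparison asks which transcripts differ between low and medium ratio when promoter output is high in both.

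All 10 libraries came from EF1a-OSCAR mice of strain C57BL6/J, in which the reporter was knocked into Rosa26 and the stop cassette was removed in the germ line with Vasa-Cre, so that every cell type of the crypt could carry it. Crypt cells were sorted as EpCAM-positive and Sytox Blue-negative, 10000 cells per population, and no treatment is given in the labels, nor the age of the mice. The labels write the gate as a genotype, but all populations share the same reporter genotype. The other 6 libraries are OSCARlow EF1alow (P1), OSCARhigh EF1alow (P2) and OSCARmed EF1alow (P4), with 2 replicates each. In the model they share the filter on low counts, the scaling and the estimate of spread, and P1 and P4 give the same contrast at low EF1a.

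CDK9 with cyclin T forms P-TEFb, the kinase that phosphorylates serine 2 of the RNA polymerase II tail and releases paused polymerase into elongation. Intestinal crypts hold Lgr5-positive columnar stem cells at the base between Paneth cells, cycling progenitors above them, and absorptive, goblet, enteroendocrine and tuft cells that differentiate on the way to the villus. Wnt signals keep the stem cells, Notch signals separate absorptive from secretory fates, and reserve stem cells are thought to replace lost Lgr5-positive cells.

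The sequences of a few gene starts are shown because the genes turn on the comparison. Ascl2 and Ephb3 are Wnt target genes of the stem cell that stand beside Lgr5 in the results. Scg3 is an enteroendocrine gene with no read in either P3 library. Hba-a1 is a haemoglobin gene with 86 and 91 reads in P3 against 3 and 0 in P5. Each is the 250 bases before the transcription start on the gene's own strand, from RefSeq (GRCm38.p6), at chr7:142969265-142969514 on the minus strand for Ascl2, chr16:21204545-21204794 on the plus strand for Ephb3, chr9:75684057-75684306 on the minus strand for Scg3 and chr11:32283422-32283671 on the plus strand for Hba-a1. Capitals mark exact matches, on either strand, to the 7 motifs named after the sequences, none of which overlaps another here. The table had no entry for Lgr5.
Ascl2: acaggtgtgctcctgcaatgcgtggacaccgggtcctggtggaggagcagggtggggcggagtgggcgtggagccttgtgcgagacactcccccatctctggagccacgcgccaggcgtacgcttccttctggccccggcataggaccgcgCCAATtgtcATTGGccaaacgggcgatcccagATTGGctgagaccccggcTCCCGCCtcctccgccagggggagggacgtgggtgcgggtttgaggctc
Ephb3: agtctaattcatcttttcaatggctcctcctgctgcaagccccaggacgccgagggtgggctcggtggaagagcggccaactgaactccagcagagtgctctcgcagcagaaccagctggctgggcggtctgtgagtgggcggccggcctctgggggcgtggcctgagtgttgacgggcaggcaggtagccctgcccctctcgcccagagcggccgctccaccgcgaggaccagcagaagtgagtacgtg
Scg3: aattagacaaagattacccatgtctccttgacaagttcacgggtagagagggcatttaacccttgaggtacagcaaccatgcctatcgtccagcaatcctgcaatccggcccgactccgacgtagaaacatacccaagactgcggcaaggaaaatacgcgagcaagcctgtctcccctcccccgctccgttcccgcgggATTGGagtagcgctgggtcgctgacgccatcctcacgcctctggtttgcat
Hba-a1: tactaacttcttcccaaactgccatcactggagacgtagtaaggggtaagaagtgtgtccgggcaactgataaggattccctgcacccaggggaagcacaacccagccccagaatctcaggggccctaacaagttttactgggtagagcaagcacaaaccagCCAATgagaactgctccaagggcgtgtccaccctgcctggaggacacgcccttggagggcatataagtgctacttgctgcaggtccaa

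The motifs were common letters. In the windows that run to 50 bases after the start, CCAAT was found in 41.1% of all 27025 gene symbols in the table and GGCGGGA in 12.7%. The motif CTTTGAT, which holds the core of the TCF site, was found in 4.29% of symbols and CAAAGTC in 5%. The motif TTTGAA was found in 20.2%, the motif TTTAAA in 14.9% and the motif TATAAA in 15.7%. Ascl2 held 3 CCAAT matches and 1 GGCGGGA match, and Ephb3 held none of the 7 motifs. Of 20 stem cell genes with an entry, 10 held CCAAT and 1 held CTTTGAT. The enteroendocrine list and the lymphocyte and blood list had the medians farthest from that of all genes, and 4 genes of each were searched singly. Of the enteroendocrine genes, Isl1 had 2 CCAAT matches, Scg3 and Tac1 had 1 each, and Cplx2 had no match. Of the blood genes, Hba-a1 had 1 CCAAT match, Coro1a had no match, and Cd52 and Hbb-b1 had no entry. A match is a description of letters and not a binding site.

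The libraries differed before any gene was compared. The 2 P3 libraries held 59.2% and 36.1% of their gene counts on mitochondrial genes, against 5.19% and 3.96% in P5 and 1.04% to 3.88% in the other 6. Counts on nuclear genes were 1574312 and 3003390 in P3 and 6104009 and 6110356 in P5, and 12678 and 15303 nuclear genes were detected in P3 against 16884 and 16936 in P5. Alignments that were not unique made up 41.7% and 33.1% of all rows in P3 and 15.0% and 14.2% in P5. In P3 the mitochondrial reads lay mostly on mt-Co1, a subunit of cytochrome c oxidase, with 26.1% and 14.8% of gene counts, and on mt-Cytb with 13.9% and 8.79%. Whether these shares play a part in the differences below was not tested, and they cannot be told apart from the gate.

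**Figure D1:**
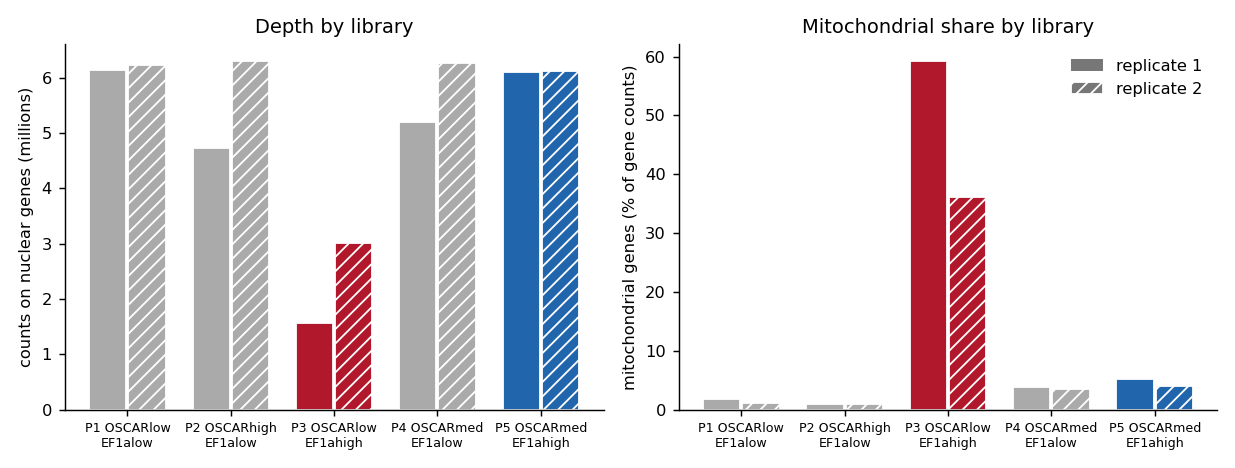
Counts on nuclear genes (left) and mitochondrial genes as a percentage of gene counts (right) for each of the 10 libraries, with P3 in red, P5 in blue and plain and hatched bars for replicates 1 and 2. The P3 libraries have the lowest nuclear counts, 1574312 and 3003390, and the highest mitochondrial shares, 59.2% and 36.1%.

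The names P2 and P3 are open to question. Secretory marker genes that the study places in its P3 lie in the libraries labelled P2, where the Paneth list summed to 3996200 and 2710800 normalized counts against 28951 and 17179 in those labelled P3. Tert and Krt19, which the study places in P2, were at 42.7 and 54.8 and at 15325 and 10073 in the libraries labelled P3, and at 9.98 and 9.52 and at 1751 and 3298 in those labelled P2. The libraries keep their labels here, and P3 stands throughout for the libraries labelled P3, so each direction below rests on that label.

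A normalized count here is the number of reads divided by the library's TMM-scaled size relative to the mean of all 10, computed on nuclear genes. With the low depth of P3, 1 read was worth 3.05 normalized counts in P3 replicate 1 and 1.37 in replicate 2, but 0.734 and 0.673 in P5, so genes of a few normalized counts were at the limit of detection in P3. Of the 13887 nuclear genes tested, 1797 and 718 had no read in P3 replicates 1 and 2, against 255 and 257 in P5.

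The replicate numbers coincided with sex. Xist, the RNA that coats the inactive X chromosome, was at 921 in P3 and 6806 in P5 in replicate 1 and at 1.37 and 5.38 in replicate 2, while the summed level of the Y-linked genes Ddx3y, Eif2s3y, Kdm5d and Uty was 0 and 1.47 in replicate 1 and 795 and 878 in replicate 2. The other 6 libraries split the same way, so by these genes replicate 1 held cells of female mice and replicate 2 of male mice in every population. A difference between P3 and P5 of the same number is thus within a sex, and replicate and sex cannot be told apart. The labels do not say whether populations of the same number came from the same animals.

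The sorted cells were epithelial by their markers. Epcam, the sorted surface protein, was at 9271 and 7688 in P3 and at 6663 and 6618 in P5, and Cdh1 was at 8368 and 5105 against 4129 and 4928. Both populations thus carried high levels of the genes that define the epithelium. In a bulk library, fewer cells of a type and less RNA per cell cannot be told apart, and this holds for each marker list below.

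Lgr5 was the 1 gene that passed the test. Lgr5 encodes the R-spondin receptor that marks crypt base columnar stem cells and lies at chr10:114887367-115024836 on the minus strand (NCBIM37, the mm9 assembly). Its normalized count was 24.4 and 57.6 in P3 and 461 and 659 in P5. Both P3 libraries lay far below both P5 libraries, and the log2 difference was -4.19 in the pair of replicate 1 and -3.49 in that of replicate 2. The fitted log2 fold change was -3.66 with a standard error of 0.34, and edgeR's quasi-likelihood test gave an adjusted p of 0.0235. Its log2 fold change stayed between -4.53 and -3.26 in all 22 alternative fits, but it missed the threshold in 9 of them, with an adjusted p of up to 0.837 in a fit of the 4 P3 and P5 libraries alone. The adjusted p in edgeR's test was 0.0862 without P3 replicate 1 and 0.117 without P5 replicate 2. Lgr5 also missed the threshold without P1 replicate 2, or without either P2 or either P4 library, at log2 fold changes of -3.67 to -3.68. In these fits the filter on low counts and the scaling were also run again, and 14625 to 14735 genes were tested.

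No other gene was called. With 1 call downward and 0 upward, the shares of the 13887 genes were 0.0072% and 0%, and 1542 genes, 11.1%, had an unadjusted p under 0.05. DESeq2 called 25 genes higher and 58 lower, 0.187% and 0.435% of the 13348 genes to which it gave an adjusted p, and Lgr5 was among them. In data simulated at these depths, 200 genes were changed by a set fold and all others were equal in P3 and P5. Of 200 genes changed 2-fold edgeR called 0, and of 200 changed 4-fold it called 108, along with 7 unchanged genes. These values hold for that number of changed genes, and the limit in the real data was not measured. Leaving out P3 replicate 2 brought the count of calls from 1 to 600 and leaving out P1 replicate 1 to 2, and it was 0 without any of P1 replicate 2, P2 replicates 1 and 2, P3 replicate 1, P4 replicates 1 and 2 and P5 replicate 2.

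Beside these calls, the genes were also described by whether a difference held in both replicate pairs. A gene held when the log2 difference of normalized counts plus 1 was at least 1 in size with the same sign in each pair, and this is a description with no test. Of the 13887 genes, 144 held upward in P3, or 1.04%, and 752 downward, or 5.42%, while 400, or 2.88%, moved at least 2-fold in opposite directions. Among the 752, 528 had no read in P3 replicate 1, so depth weighs on this count. Of the 9409 genes with a mean normalized count of at least 50 over the 4 libraries, 15 held upward, or 0.159%, and 121 downward, or 1.29%. Regardless of size, 24.9% of all genes were higher in P3 in both pairs and 34.6% lower, and both P3 libraries lay above both P5 libraries for 16.4% and below them for 23.6%. Over the 9409 genes the differences of the 2 pairs correlated at Pearson's r = 0.355 and a Spearman coefficient of 0.333, across genes that share the same libraries.

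**Figure D2:**
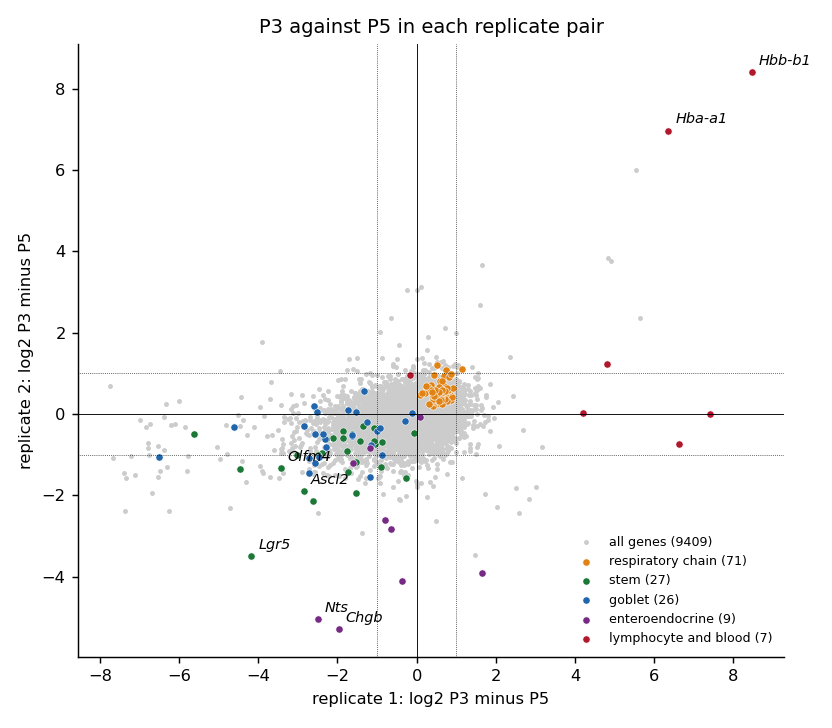
Log2 difference of P3 from P5 in the pair of replicate 1 (horizontal) and of replicate 2 (vertical) for the 9409 nuclear genes with a mean normalized count of at least 50, with members of 5 gene lists in colour and dotted lines at 2-fold. Lgr5, at -4.19 and -3.49, Nts and Chgb sit low in both pairs, the respiratory chain genes form a tight group above 0 in both, and Hba-a1 and Hbb-b1 are the far upper right points.

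The stem cell genes were lower in P3 as a list. All 30 tested members had a negative fold change and were lower in both pairs, against 34.6% of all genes, and 28 had both P3 libraries below both P5 libraries, against 23.6%. The median log2 fold change was -1.26, against -0.06 over all genes tested, and the medians of the pairs were -1.85 and -0.93. Of the 30, 12 held at least 2-fold downward in both pairs and none upward, and 10 of the 12 had a mean normalized count of at least 50.

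Ascl2, a transcription factor of the Wnt-driven stem cell programme, was at 21.3 and 48.0 in P3 and at 161 and 181 in P5. Its log2 fold change was -2.22 with a standard error of 0.50, and edgeR's adjusted p was 0.341, so it did not pass. Olfm4, an abundant secreted stem cell marker, was at 1818 and 13864 in P3 and at 19674 and 34795 in P5. The P3 replicates differed from each other by far more than the P5 replicates did, and Olfm4 had a log2 difference of -3.44 in the pair of replicate 1 and of -1.33 in that of replicate 2. Ephb3, an ephrin receptor that keeps cell types in place along the crypt, was at 33.5 and 60.3 in P3 and at 213 and 268 in P5. Tnfrsf19, the Wnt target also called Troy, had no read in P3 replicate 1 and was at 10.96 in replicate 2, against 61.7 and 100.9. DESeq2 gave adjusted p-values of 0.00428 for Ephb3, 0.0223 for Tnfrsf19 and 0.0252 for Ascl2, which edgeR did not call.

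The Wnt list overlapped with the stem cell markers. This list of receptors, effectors and targets shares Lgr5, Ascl2, Axin2, Rnf43, Znrf3 and Tnfrsf19 with the stem list, and 30 of its 33 genes were tested. With these included, its median was -0.47, with 5 genes held downward, against 5.42% of all genes, and none upward. Fzd2, a Wnt receptor, had 0 and 2 reads in P3 and 30 and 63 in P5, a ratio of P5 to P3 of 17.3 with a 95% counting interval of 4.65 to 145. Among 21 Notch genes the median was -0.24, with 2 held downward, against 5.42% of all genes. Both of the 2 were near the limit of detection or under 112 normalized counts in every P3 and P5 library.

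Most proposed markers of reserve stem cells were lower in P3, with Krt19 as an exception. Of 12 tested, 9 were lower in both pairs, against 34.6% of all genes, 1, Krt19, was higher in both, and 3 held at least 2-fold downward, against 5.42%. The median was -0.77, and it lay between -1.31 and -0.63 under the alternatives. The 3 that held were Clu, Mex3a and Msi1. Mex3a is also a member of the stem list, so the lists are not separate, and Clu had 0 and 1 reads in P3. Krt19, a keratin proposed to mark long-lived cells above the crypt base, was at 15325 and 10073 in P3 and at 7864 and 7043 in P5, with a log2 fold change of 0.77, a standard error of 0.38 and an adjusted p of 0.482 in edgeR's test. Tert, the catalytic subunit of telomerase, was at 42.7 and 54.8 in P3 and at 72.0 and 42.4 in P5, so the groups overlapped. Msi1, an RNA-binding protein of stem and progenitor cells, was at 45.7 and 49.3 against 134 and 193. Lrig1, an inhibitor of ERBB receptors found in stem cells, was at 467 and 788 against 985 and 1243. Reads were counted without regard to strand, so the values of Lrig1 may include reads from a gene on the opposite strand. The same holds for Vil1, Fcgbp, Bcas1, Trpm5, Ndufb6, Hadha, Ccnt1, Polr2c, Ccnh, Egr1, Erbb2, Hsp90b1, Bcl2, Malat1, Xist, Cd52, Axin2 and Cttnbp2.

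Genes of mitosis were lower in P3 in most cases, and S phase genes were so less uniformly. Of 68 mitotic genes, 66 had a negative fold change and 58 were lower in both pairs, against 34.6% of all genes. Their median was -0.64, with medians of -0.88 and -0.56 in the pairs. Only 3 held at least 2-fold downward, against 5.42% of all genes. Mki67, the proliferation antigen, was at 1638 and 3416 in P3 and at 3378 and 5244 in P5, so P3 replicate 2 overlapped with P5 replicate 1. Aspm, a spindle pole protein, was at 168 and 232 in P3 and at 381 and 602 in P5, with a log2 fold change of -1.29, a standard error of 0.32 and an adjusted p of 0.341. Of 53 S phase genes, 39 had a negative and 14 a positive fold change. In both pairs 24 were lower, against 34.6% of all genes, and 5 were higher, against 24.9%. Their median was -0.23, with -0.66 in the pair of replicate 1 and 0.01 in that of replicate 2. Without P3 replicate 1 the median was 0.24, and without P3 replicate 2 it was -1.04. Mcm6, a subunit of the replicative helicase, was at 323 and 1251 in P3 against 761.5 and 986 in P5.

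Goblet and enteroendocrine genes were lower in P3 as lists. All 28 goblet genes tested had a negative fold change, with a median of -1.05. Of these, 22 were lower in both pairs, against 34.6% of all genes, and 6 held at least 2-fold downward, against 5.42%. The size came mostly from replicate 1, where the median was -2.30, against -0.46 in replicate 2. Muc2, the main mucin of the intestine, was at 903 and 2430 in P3 and at 5937 and 5112 in P5. Fcgbp, a mucus protein, was at 4578 and 9647 in P3 and at 27199 and 22188 in P5. Bcas1 was at 24.4 and 38.4 against 165 and 107, and Sytl2, which helps tether secretory granules, at 91.5 and 58.9 against 209 and 174. Of the 28 goblet genes, 21 had both P3 libraries below both P5 libraries, against 23.6% of all genes. The goblet genes given here were among the 21, but they were chosen mostly for differences that held in both pairs. Their adjusted p-values in edgeR's test lay between 0.281 for Bcas1 and 0.405 for Fcgbp.

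Of 36 enteroendocrine genes tested, 33 had a negative fold change and 28 were lower in both pairs, against 34.6% of all genes. At least 2-fold downward 16 held, the most of any list and against 5.42% of all genes. The median was -1.79, and the medians of the pairs, -1.98 and -2.18, were close to each other. Only 9 of the 36 reached a mean normalized count of 50, and 3 of the 16 that held were among them. Chgb, a granin of hormone granules, was at 134 and 21.9 in P3 and at 530 and 896 in P5. Chga, the related granin, was at 213 and 30.1 in P3 and at 278 and 537 in P5, with a difference in replicate 1 of -0.38 on the log2 scale. Nts, the hormone neurotensin, was at 18.3 and 9.59 in P3 and at 108 and 350 in P5. No P3 library had a read of Scg3, a granin, of Isl1, a transcription factor of hormone cells, or of Tac1, the precursor of substance P. P5 had 14 and 18 reads of Scg3, 8 and 20 of Isl1, and 10 and 48 of Tac1. Against a floor of 3 reads over both P3 libraries, Scg3 was at least 3.96-fold lower in P3, Isl1 at least 3.47-fold and Tac1 at least 7.18-fold.

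**Figure D3:**
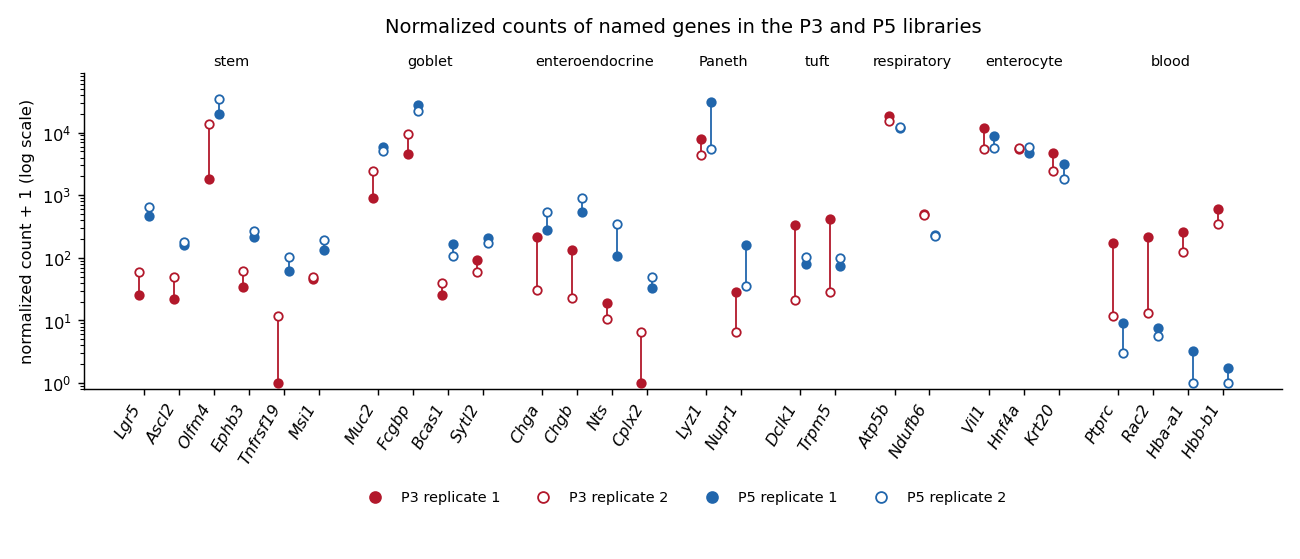
Normalized count plus 1, on a log scale, of 27 genes in the 2 P3 libraries (red) and the 2 P5 libraries (blue), with filled points for replicate 1, open points for replicate 2 and a line joining the replicates of a population. The stem, goblet and enteroendocrine genes lie lower in P3, the tuft genes Dclk1 and Trpm5 lie above P5 in P3 replicate 1 and below it in replicate 2, and the respiratory genes lie slightly higher in P3.

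Paneth and tuft genes depended on the replicate. Of 21 Paneth genes, 19 had a negative fold change, but the medians of the pairs were -1.69 and -0.29. Downward 3 genes held, against 5.42% of all genes. Lyz1, the lysozyme of Paneth granules, was at 7932 and 4318 in P3 and at 31082 and 5551 in P5, so the value of 1 library, P5 replicate 1, set the difference. Without it the log2 fold change of Lyz1 was 0.13, against -1.58 with all libraries, and the median of the list was 0.11, against -1.32. Nupr1, a stress-induced chromatin protein, was at 27.4 and 5.48 in P3 and at 158 and 34.3 in P5, with log2 differences of -2.48 and -2.45 in the pairs.

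The 26 tuft genes had a median of 0.81, or of -1.14 without P3 replicate 1, and of 1.90 in the pair of replicate 1 and of -0.92 in that of replicate 2. Dclk1, the kinase used to mark tuft cells, was at 332 and 20.6 in P3 and at 80.0 and 104 in P5. Trpm5, a cation channel of taste and tuft cells, was at 421 and 27.4 against 73.4 and 100. The P3 replicates stood on either side of both P5 replicates for these genes. Pou2f3, the transcription factor that tuft cells require, differed from them, with no read in P3 and 25 and 37 reads in P5, and was at least 7.67-fold lower in P3 against a floor of 3 reads over both libraries.

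Absorptive genes had medians near 0, with signs that depended on the library. The medians were 0.17 for 24 brush border genes, 0.23 for 37 genes of hydrolases and transporters, 0.18 for 28 genes of fat absorption and 0.12 for 26 enterocyte transcription factors. Without P3 replicate 1 these medians were -0.20, -0.84, -0.52 and -0.035, and the highest values under any alternative were 0.47, 0.87, 0.62 and 0.22. Of all these genes 1, Pnliprp2, held 2-fold in both pairs, downward, against 5.42% of all genes tested. Pnliprp2 is also a member of the Paneth list. It was at 217 and 63.0 in P3 and at 695 and 135 in P5, so the populations overlapped. Vil1, the actin bundler of microvilli, was at 11745 and 5565 in P3 and at 8678 and 5782 in P5. Hnf4a, a nuclear receptor of the absorptive lineage, was at 5575 and 5731 against 4795 and 5796. Sis, sucrase-isomaltase, was at 38283 and 9848 against 23348 and 12449, and Apoa1, an apolipoprotein, at 21135 and 7195 against 20292 and 5142. For Sis and Apoa1, replicates of a population differed more than the populations did, with replicate 1 above replicate 2 in both. Krt20, a keratin of mature enterocytes, was at 4706 and 2464 against 3199 and 1792, and its log2 fold change of 0.52 had a standard error of 0.60.

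**Figure D4:**
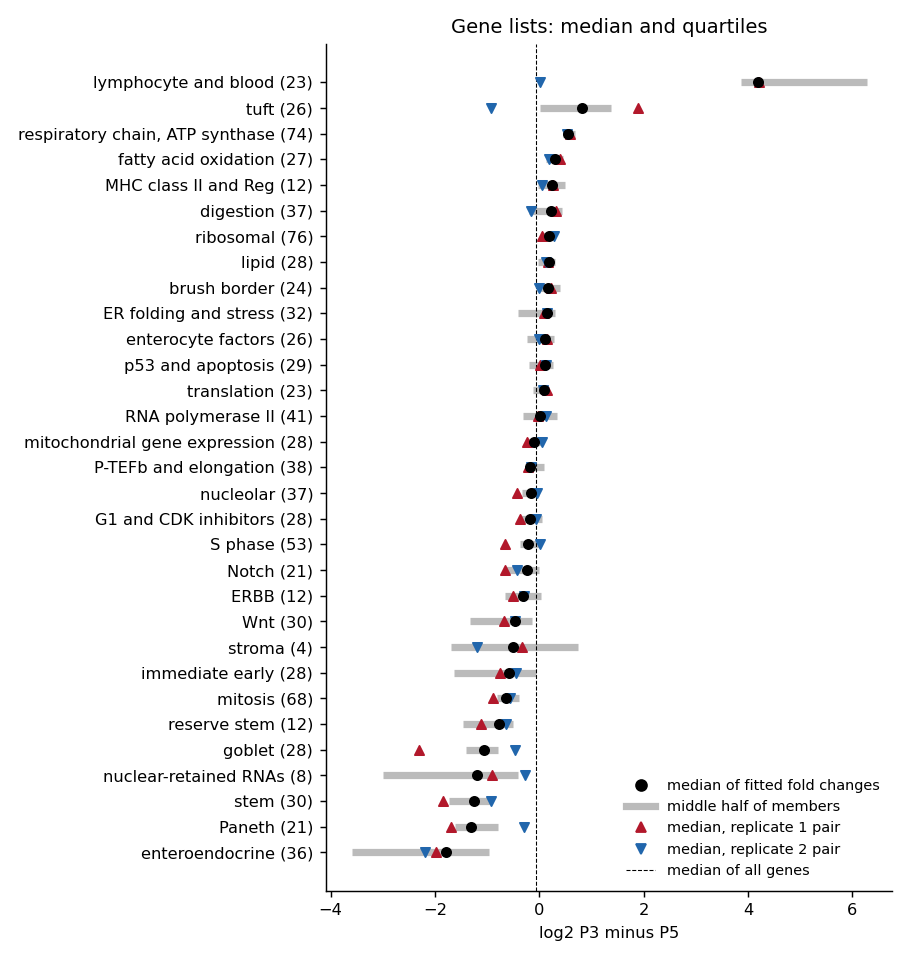
Log2 difference of P3 from P5 for each of the 31 gene lists, with the number of genes tested in brackets, as the median of the fitted fold changes (black), the middle of the distribution from the lower to the upper quartile (grey bar) and the median in each replicate pair (red and blue triangles). The stem, enteroendocrine, goblet, mitosis and respiratory lists have triangles on the same side of the median of all genes, at -0.06, while the tuft triangles lie at 1.90 and -0.92 and the lymphocyte triangles at 4.21 and 0.02.

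Nuclear-encoded genes of the respiratory chain and ATP synthase were slightly but uniformly higher in P3. Of 74 tested, 73 had a positive fold change and were higher in both pairs, against 24.9% of all genes, and 70 had both P3 libraries above both P5 libraries, against 16.4%. The median was 0.54, with quartiles of 0.45 and 0.67, and the medians of the pairs were 0.59 and 0.53. None was called by edgeR. An unadjusted p under 0.05 in edgeR's test was found for 48, all higher in P3, as for 528 of all 13887 genes in that direction. DESeq2 called 6, against 0.187% of all genes upward. Atp5b, the catalytic beta subunit of ATP synthase, was at 18481 and 15368 in P3 and at 11986 and 12106 in P5. Sdha, a subunit of complex II, was at 5413 and 4576 against 3596 and 3616. Ndufb6, a subunit of complex I, was the 1 member that held 2-fold, at 509 and 485 against 229 and 224, and its DESeq2 adjusted p was 0.0111 and its adjusted p in edgeR 0.341. In the same libraries the mitochondrial genome itself took 59.2% and 36.1% of gene counts.

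Other nuclear genes that serve mitochondria differed by group. The 28 factors of mitochondrial DNA copying, transcription and RNA handling had a median of -0.11, and Tfam, which packages mitochondrial DNA, was at 424 and 635 in P3 and at 445 and 523 in P5. The 27 genes of fatty acid oxidation had a median of 0.31, with 23 positive and 18 higher in both pairs, against 24.9% of all genes, and 12 had both P3 libraries above both P5 libraries, against 16.4%. Cpt1a, which admits fatty acids to mitochondria, was at 2550 and 2061 against 1624 and 1689, and Hadha at 2949 and 2086 against 2039 and 1890.

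Fold changes moved with gene length. Over the 9390 genes with a mean normalized count of at least 50 and a known exon length, the median log2 fold change went from 0.36 in the 177 genes of up to 500 bases to -0.19 in the 2122 genes over 6000 bases. The medians at these ends were 0.28 and -0.18 in the pair of replicate 1 and 0.38 and -0.21 in that of replicate 2. The respiratory genes are short, with a median exon length of 1328 bases, and after subtraction of the running median over genes of like length their median was 0.35. The 76 ribosomal protein genes, with a median length of 1500 bases, had a median of 0.19, which became -0.02. The stem list, with a median length of 4850 bases, went from -1.26 to -1.14, and the enteroendocrine list from -1.79 to -2.09.

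**Figure D5:**
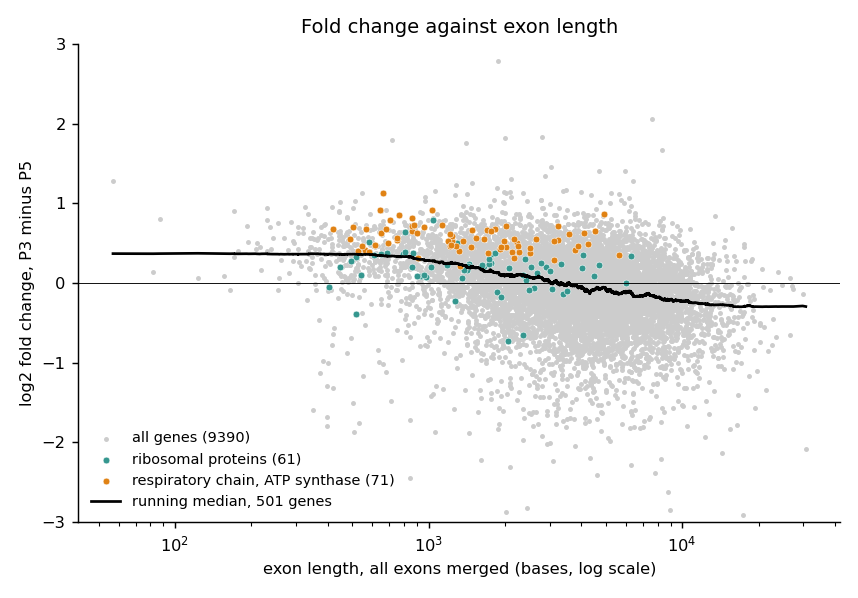
Log2 fold change of P3 against P5 (vertical) by the merged exon length of the gene in bases (horizontal, log scale) for 9390 nuclear genes, with the ribosomal protein and the respiratory chain genes in colour and a running median as a line, 14 genes lying outside the vertical range. The line goes from above 0 for short genes to below 0 for long ones, and most respiratory chain genes lie above it while the ribosomal genes lie around it.

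The transcription and translation machinery that bears on the reporter differed little. Cdk9, the kinase the reporter reads, was at 201 and 245 in P3 and at 262 and 224 in P5, a log2 fold change of -0.11 with a standard error of 0.20. Ccnt1, its cyclin, was at 189 and 248 against 239 and 278, and Polr2a, the large subunit of RNA polymerase II that carries the phosphorylated tail, at 1150 and 999 against 1042 and 1166. For these genes the P3 and P5 libraries overlapped. Polr2c, a smaller subunit, was at 171 and 121 against 85.9 and 86.1, and Ccnh, the cyclin of the CDK7 kinase, at 183 and 151 against 117 and 106. Both were higher in each P3 library than in either P5 library, with log2 fold changes of 0.75 and 0.57 and edgeR adjusted p-values of 0.429 and 0.446.

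The 38 P-TEFb and elongation genes, the 41 genes of RNA polymerase II and general factors and the 37 nucleolar genes had medians of -0.17, 0.02 and -0.17. None of these genes held 2-fold, against 1.04% of all genes upward and 5.42% downward. Supt5h, an elongation factor that P-TEFb phosphorylates, was at 528 and 589 against 697 and 693. Ncl, nucleolin, was at 2193 and 3856 against 3428 and 4125. Eef1a1, the gene of elongation factor EF1a, was at 18762 and 18967 in P3 and at 16127 and 16674 in P5, a log2 fold change of 0.20 with a standard error of 0.33. Rpl4 and Rps3, ribosomal proteins, were at 7658 and 8660 against 7196 and 7335 and at 5465 and 6447 against 5416 and 5750.

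Immediate early and heat shock genes, which cells switch on soon after a stimulus, were lower in part. Of 28 tested, 18 were lower in both pairs, against 34.6% of all genes, and 7 held 2-fold downward, against 5.42%. The median was -0.58. Fosb was at 0 and 27.4 in P3 and at 164 and 147 in P5, and Egr1 at 24.4 and 206 against 505 and 653. Nr4a1 had 0 and 2 reads in P3 and 50 and 40 in P5. Cyr61, a secreted target of YAP and of serum response, was at 0 and 20.6 against 75.6 and 112. These 4 genes were picked for differences that held in both pairs, so their separation follows in part from that choice. Of the 28 in the list, 17 had both P3 libraries below both P5 libraries, against 23.6% of all genes, and 1 had them above.

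Other signalling and stress lists had medians between -0.31 and 0.25. The 12 ERBB genes had the lowest, at -0.31, with 9 negative and 3 positive, and 0.050 without P5 replicate 2. The receptors Erbb2 and Erbb3 were among the 3 positive ones, and Erbb2 was at 1562 and 1172 in P3 and at 949 and 1061 in P5, and Erbb3 at 4081 and 2692 against 2760 and 2625. The 32 genes of protein folding in the endoplasmic reticulum had a median of 0.14, with Canx and Hsp90b1, its chaperones, at 4291 and 3493 against 2610 and 2726 and at 5654 and 4213 against 3302 and 3366. The 29 p53 and apoptosis genes had a median of 0.11, the 12 MHC class II and Reg genes of 0.25, the 23 translation factors of 0.08, and the 28 genes of G1 control of -0.18. Bcl2, which protects from apoptosis, held downward at 12.2 and 23.3 against 69.8 and 55.8, and Mcl1, of the same family, was at 1128 and 936 against 940 and 789.

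Among RNAs that stay in the nucleus, Malat1 stood lower in P3. All 8 tested had a negative fold change, as did 7558 of all 13887 genes. Of the 8, 4 were lower in both pairs, against 34.6% of all genes. Between the populations 5 overlapped, as did 8332 of all 13887 genes. The list's median of -1.19 was -0.26 without P5 replicate 1. Malat1, a nuclear speckle RNA, was at 232 and 459 in P3 and at 1395 and 1040 in P5, with a log2 fold change of -1.80, a standard error of 0.48, an adjusted p of 0.348 in edgeR and of 0.0357 in DESeq2. In replicate 1, where it could be measured, Xist was at 921 against 6806. In replicate 2 the 4 Y-linked genes summed to 795 against 878.

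Genes of blood cells were higher in P3 than in P5. Of the 23 lymphocyte and blood genes tested, of 29 listed, 8 held 2-fold upward, against 1.04% of all genes, and the list's summed level was 2748 and 659 normalized counts in P3 and 117 and 90.1 in P5. At low EF1a the sum was 9042 and 3190 in P1 and 106 and 150 in P4, and in P2, the population of high OSCAR ratio, it was 898 and 823. The 2 populations of medium ratio were thus the lowest of the 5. The median of the pair of replicate 1 was 4.21 and that of replicate 2 was 0.02. Ptprc, the common leukocyte antigen, was at 174 and 10.96 in P3 and at 8.08 and 2.02 in P5, and Cd3e, a T cell receptor subunit, at 70.1 and 0 against 0 and 1.35. Coro1a, an actin regulator of leukocytes, had 33 and 11 reads in P3 and none in P5. It was 39.5-fold higher in P3 at a floor of 3 reads over both P5 libraries, and its 95% counting interval began at 30.8-fold. Rac2, a GTPase of blood cells, was at 213 and 12.3 against 6.61 and 4.71. The lymphocyte genes were thus those of P3 replicate 1 in the main, and without that library the list's median of 4.19 was 0.

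Haemoglobin genes, by contrast, were present in both P3 libraries. Hbb-b1 had 201 and 249 reads in P3 and 1 and 0 in P5, and the ratio of P3 to P5 was 1212 with a 95% counting interval of 216 to 47980. Hba-a1 had 86 and 91 reads against 3 and 0, a ratio of 159 with an interval of 53.5 to 778, and Hba-a2 60 and 46 reads against 4 and 0. Hba-a1 and Hba-a2 are near-identical copies, and reads that align to both were not counted. Of 18 stromal genes 4 passed the filter on low counts, and their summed level was 88.4 and 32.9 in P3 and 44.1 and 47.1 in P5. The part of these other cell types in the differences of the other lists was not tested.

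The remaining genes with the largest differences in both pairs had no list in common. Upward they were, besides the haemoglobin genes and Rac2, Hmha1, Npl, Rbp7 and the unnamed models 2010109I03Rik, Gm13340 and Gm13341, of which the last 2 resemble mitochondrial sequence. Gm13340 was at 2806 and 793.5 in P3 and at 97.7 and 54.5 in P5, in the order of the mitochondrial shares of the 4 libraries. Rbp7, a retinoid-binding protein, was at 317 and 359 in P3 and at 60.9 and 135 in P5, with a DESeq2 adjusted p of 0.0223 and an adjusted p in edgeR of 0.341. Hmha1 was at 195 and 10.96 against 2.94 and 1.35, and Npl, an enzyme of sialic acid breakdown, at 122 and 39.7 against 39.7 and 5.38. Downward, besides genes already given, were Sorcs2, a sorting receptor, at 3.05 and 38.4 against 106 and 194, and Cttnbp2 at 0 and 20.6 against 102 and 81.4.

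The same step from medium to low OSCAR can be read at low EF1a, between P1 and P4, which share no library with P3 and P5. There edgeR called 2642 genes higher and 3343 lower in P1, or 19% and 24.1%. The difference between the contrasts, P3 less P5 minus P1 less P4, was tested as an interaction and was called for 1267 genes above 0, or 9.12%, and for 1184 below 0, or 8.53%. Without P4 replicate 2 the count of both directions was 0, without P5 replicate 1 it was 202 and without P4 replicate 1 it was 825. Without P1 replicate 1, P5 replicate 2 or P1 replicate 2 it was 1137, 1340 or 1435, against 2451 with all libraries.

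The stem list was low in both settings. At low EF1a its median was -2.58, with 25 of 30 genes called lower in P1, against 24.1% of all genes. A difference between the contrasts was called for 4 of the 30, all above 0, against 9.12% of all genes. Lgr5 was at 59.3 and 56.1 in P1 and at 631 and 743 in P4, a log2 fold change of -3.57 against -3.66 at high EF1a, and the difference of -0.09 had an adjusted p of 0.911. Goblet genes had a median of -1.55 at low EF1a, with 1 of 28 differences called above 0 and 0 below. Respiratory genes had a median of 0.54 in both settings, with 2 of 74 differences called above 0 and 0 below. Over all genes the shares were 9.12% above 0 and 8.53% below. A difference that was not called does not show that the steps were alike.

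Paneth genes separated the settings. They had a median of 5.64 at low EF1a, with 18 of 21 called higher in P1, against 19% of all genes. For 19 of 21 the difference between the contrasts was called below 0, against 8.53% of all genes. Lyz1 was at 50820 and 162580 in P1 and at 1231 and 2392 in P4, and its interaction was -7.46 on the log2 scale, with an adjusted p of 0.0167. Ribosomal protein genes had a median of -1.58 at low EF1a, with 62 of 76 called lower in P1, against 24.1% of all genes. Of their differences 49 of 76 were called above 0, against 9.12% of all genes. Nucleolar genes had a median of -2.02 there, with 20 of 37 differences called above 0, against 9.12% of all genes. Immediate early and p53 genes had 9 of 28 and 11 of 29 differences called below 0, against 8.53% of all genes.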

How the data were processed

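Each library had a deposited table of raw counts per gene. According to the methods and labels, the authors aligned 75-cycle reads to mm9 with TopHat 2.1.0, counted reads on exons with HTSeq 0.11.2 ignoring strand, checked quality with FastQC 0.11.5 and prepared poly-A libraries from sorted cells. Nothing in these counts was normalized. Ambiguous and unassigned rows, 37 mitochondrial and 184 rRNA names were removed, with some names in both, which left 34787 nuclear names. No strand information means that reads of a gene and its antisense partner cannot be told apart.

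All 10 libraries were fitted with edgeR 4.0.16 (R 4.3.3) by quasi-likelihood on TMM-scaled counts, after its filter on low counts, with 1 term per population, 5 residual degrees of freedom and Benjamini-Hochberg adjustment over all 13887 genes tested. Genes were called at an adjusted p under 0.05. DESeq2 1.42.0, the study's tool, was an alternative. The script was tested on simulated data. Standard errors were derived from the fold change and its F value. The study describes the replicates of each population as biological, and p-values measure the spread between these samples. Counting intervals are 95% exact intervals and, like the floors of 3 counts, cover counting error only, since reads carried no molecular identifiers.

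The 31 gene lists and the named genes were chosen with earlier results of these data known, so lists were described by counts and medians and got no test. Named were genes of interest to the study, the 10 genes in each direction with the largest smaller pair difference at a mean normalized count of at least 50, called genes and up to 4 members of each list. Not all of these 142 genes are described. Further list members were named after their values were seen. The haemoglobin, epithelial and Y-linked sets were also formed after the data were seen. Genes resembling mitochondrial sequence were found with blastn 2.17.0 at 90% identity over 75 bases. Exon lengths and gene positions came from the NCBIM37 annotation, which held 33424 of the nuclear names. Promoters came from RefSeq (GRCm38.p6) and only their letters were used.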

Additional observations from a re-analysis of the deposited data

Results flagged for a closer look

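The P3 libraries stood apart in reads outside the nuclear genes. Mitochondrial genes took 59.2% and 36.1% of gene counts, against at most 5.19% in the other 8 libraries, and alignments that were not unique made up 41.7% and 33.1% of all rows.

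The step from medium to low OSCAR differed between high and low EF1a by the test of the difference itself (edgeR, adjusted over all genes) for 2451 genes, which include 24 of the genes examined one by one. Above 0 on the log2 scale, so higher at high EF1a relative to low, were Gm13340 at 6.04 and Gm13341 at 5.03, which resemble mitochondrial sequence, the epithelial genes Cdh1 at 2.46 and Epcam at 1.24, Rbp7 at 3.47, the chaperones Hsp90b1 at 2.32 and Canx at 1.98, Erbb2 at 2.24 and Erbb3 at 1.27. Tert at 2.13, Krt19 at 2.06 and Lrig1 at 1.72, proposed markers of reserve stem cells, lay on the same side. So did Cpt1a at 2.02, the ribosomal protein genes Rps3 at 1.52 and Rpl4 at 1.48, and Ccnh at 1.22. Below 0 were Lyz1 at -7.46, Pnliprp2 at -7.28, Nupr1 at -5.73, Krt20 at -3.8, Vil1 at -2.3 and Fgfrl1 at -2.08. Npl at -7.03 and Mcl1 at -1.62 were also below 0. None of these 24 genes was called between P3 and P5 itself by edgeR in the fit reported, but DESeq2 called Gm13340, Gm13341 and Rbp7, and a replicate block in edgeR called Gm13340 and Gm13341.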

How the results depend on the processing

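The number of genes called between P3 and P5, 1 in the fit reported, was 0 with library totals, with the P3 and P5 libraries alone and at an adjusted p under 0.01, 487 without a filter on low counts (116 higher and 371 lower), 83 with DESeq2 (25 and 58) and 0 to 600 when 1 library was left out. It was 1 in 7 other alternatives, with Lgr5 the gene called in each. With a replicate block it was 4 (Lgr5, Gm13340, Gm13341 and Xist). The replicate numbers are not stated to pair the samples, but they coincided with sex. Deviations of the same number correlated at 0.264 between P3 and P5 and at -0.043 to 0.511 over all pairs of populations. The fit reported had no replicate term, so a difference between the sexes counts as spread in it. The 896 genes held in both pairs became 136 at a mean normalized count of at least 50, 29 at 200 (chosen after seeing the data) and 261 at 4-fold, and 645 where every P3 library lay 2-fold outside every P5 library. The 2451 differences between the contrasts became 375 at an adjusted p under 0.01, 3058 with the block, 3180 with DESeq2 (1246 above and 1934 below 0) and 2512 with DESeq2 size factors (1010 and 1502), and 0 to 3355 when 1 library was left out. The cause of these shifts was not tested.

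Lgr5 kept its direction throughout. Other genes whose sign turned when 1 library was left out, none of them called in the fit reported, gave log2 fold changes of -0.55 to 0.21 for Tert, -1.45 to 0.54 for Mcm6, -0.36 to 0.69 for Vil1, -0.048 to 0.23 for Hnf4a, -0.84 to 1.09 for Sis, -0.80 to 1.45 for Apoa1, -2.35 to 0.13 for Lyz1, -2.13 to 1.84 for Dclk1, -1.64 to 2.26 for Trpm5, -0.28 to 0.035 for Cdk9, -0.13 to 0.047 for Polr2a, -0.042 to 0.23 for Rps3, -0.80 to 0.051 for Ncl, -0.20 to 0.41 for Tfam, -2.79 to 7.89 for Cd3e, -3.70 to 7.69 for Gzma, -1.996 to 10.03 for Ccl5 and -11.14 to 6.34 for Xist. Polr2a was at 0.0039 with DESeq2 size factors and at 0.00084 with DESeq2. Of the values of 85 genes under 7 alternatives (size factors, DESeq2, the block and each P3 or P5 library left out), 522 kept direction and side of the threshold, 47 newly passed it, 2 lost it and 24 turned.

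Of 31 list medians, 16 kept their sign or were at 0 under every alternative. The ranges were -1.94 to -0.83 for stem, -3.04 to -1.55 for enteroendocrine, -2.06 to -0.46 for goblet, -1.27 to -0.23 for mitosis and 0.35 to 0.65 for respiratory genes. Tuft genes went from -1.14 to 1.80. As a share of all rows, mitochondrial genes took 33.0% and 22.2% in P3 and 3.79% and 2.98% in P5. The low nuclear counts of P3 limit all values of genes with few reads.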

Other observations

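The 2 P3 libraries differed from each other in the mitochondrial share by 59.2% against 36.1%, in the lymphocyte and blood sum by 2748 against 659, and in the stem cell sum by 6545 against 24509 normalized counts. In P5 the same sums were 117 against 90.1 and 35541 against 54652. In other lists the unevenness lay elsewhere, as with the Paneth sum, at 79488 against 19973 in P5 and at 28951 against 17179 in P3. The haemoglobin genes summed to 1104 and 635 normalized counts in the P3 libraries, whereas Gzma and Ccl5, genes of cytotoxic lymphocytes, were at 317 and 293 in P3 replicate 1 and had no read in replicate 2. Without the haemoglobin genes, the lymphocyte genes summed to 1872 and 193 in P3 and to 114 and 90.1 in P5.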
